A study of Mus musculus with 6 samples.

Results

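The genes described here are 10 transcriptional targets and feedback genes of bone morphogenetic protein (BMP) signalling: Id1, Id2, Id3, Id4, Smad6, Smad7, Smad9, Msx1, Msx2 and Bambi. They were taken by symbol from the authors' deposited tables, and all 10 were found among 24421 rows. All 10 reached a base mean, the mean normalised read count, of 10, as did 14580 genes in all. RNA-seq was made from palatal mesenchyme, its anterior part, of E12.5 mouse embryos on the C57BL/6 background, after removal of the epithelium with Dispase II. Of the 6 libraries, 3 came from wildtype embryos and 3 from Wnt1Cre;Meis2f/f embryos, where a Cre driven by Wnt1 sequences deletes floxed Meis2, a homeobox gene, in the neural crest. Cells of the palate that do not descend from the neural crest are not targeted by this Cre. The labels name no Cre for the wildtype embryos, so an effect of Wnt1Cre itself cannot be told apart from that of the Meis2 deletion.

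BMP ligands bind paired serine-threonine kinase receptors, which phosphorylate Smad1, Smad5 and Smad9, and these enter the nucleus with Smad4 and bind regulatory DNA. Genes that respond quickly include the Id genes, whose helix-loop-helix proteins lack a basic DNA-binding region and hold E proteins and other basic helix-loop-helix factors away from DNA. The pathway also induces its own restraints, the inhibitory Smads Smad6 and Smad7 and the pseudoreceptor Bambi. In the palate, Msx1 is a homeobox gene of the anterior mesenchyme that acts in a loop with Bmp4 and is required for palate growth, and Msx2 is its close relative.

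The deposited files hold the authors' comparison of all 6 libraries and a comparison of 4 of them, 2 per genotype. The number of reads of a gene in each library could be recovered from the base means, because these are sums of whole reads with 1 fixed weight per library. All 12573 genes searched whose base mean reached 10 had exactly 1 set of whole reads that gave both deposited base means. The highest base mean among them was 1647, and genes above the limit of the search in either table, Twist1 among them, have no reads here. The libraries are called mutant library 1 to 3 and wildtype library 1 to 3 by falling size factor, and these numbers are not the replicate numbers of the labels. A library was placed in a genotype by the sign that the authors' deposited fold change gives to genes with a single read in that library. Fold changes were read as mutant over wildtype because Meis2 is lower under that reading, and every direction given here rests on it. Mutant library 2 and wildtype library 2 are the libraries that the 4-library table leaves out. Size factors ran from 0.775 to 1.44, and the recovered genes held 3860310 to 6995430 reads per library. Meis2 itself had 1218 to 1378 normalised reads in the mutant and 1526 to 1695 in the wildtype libraries, groups that did not overlap. The authors' deposited tables gave it an adjusted p of 0.0743 with 6 and of 0.0213 with 4 libraries (DESeq2 Wald test).

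Id2 and Msx2, 2 of the 10 BMP response genes, were lower in the mutant and 0 were higher at an adjusted p under 0.05 (DESeq2 Wald test, the authors' deposited 6-library table). In that deposited table of the authors 1.16% of the 14942 genes with an adjusted p were called lower and 1.75% higher. The members were chosen with earlier results of these data known, so counts set beside such shares describe the set and do not test it. The other 8 members did not pass the test. With 4 libraries the authors' deposited table called 1 member lower, Id2, against 0.990% of all genes. With p adjusted only over genes whose base mean reached 100, which leaves out Msx2, the deposited p-values of the authors also called Id2 alone, and 1.34% of genes, lower. At an unadjusted p under 0.05, 5 members lay lower with 6 libraries, against 5.21% of genes whose base mean reached 10, by the authors' deposited table. With 4 libraries 3 did, Id2, Id4 and Msx2, against 4.73% of genes, while Smad9 (unadjusted p 0.127) and Msx1 (0.0629) did not (DESeq2 Wald test, the authors' deposited table). The authors' deposited table of 6 libraries gave the 10 members a median log2 fold change of -0.27, with 8 below 0, while all genes whose base mean reached 10 had a median of -0.013, with 54.0% below 0. With 4 libraries these medians were -0.20 and -0.0021. In the recovered reads all 3 mutant libraries lay below all 3 wildtype libraries for 5 members, Id2, Smad9, Msx1, Msx2 and Bambi. The same was true of 8.92% of the 12573 recovered genes. A limma test of the recovered values on the log2(normalised count + 1) scale also called Id2 and Msx2 lower, and 0.970% of genes, at an adjusted p under 0.05. In bulk tissue fewer cells of a type and less RNA per cell cannot be told apart.

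**Figure D1:**
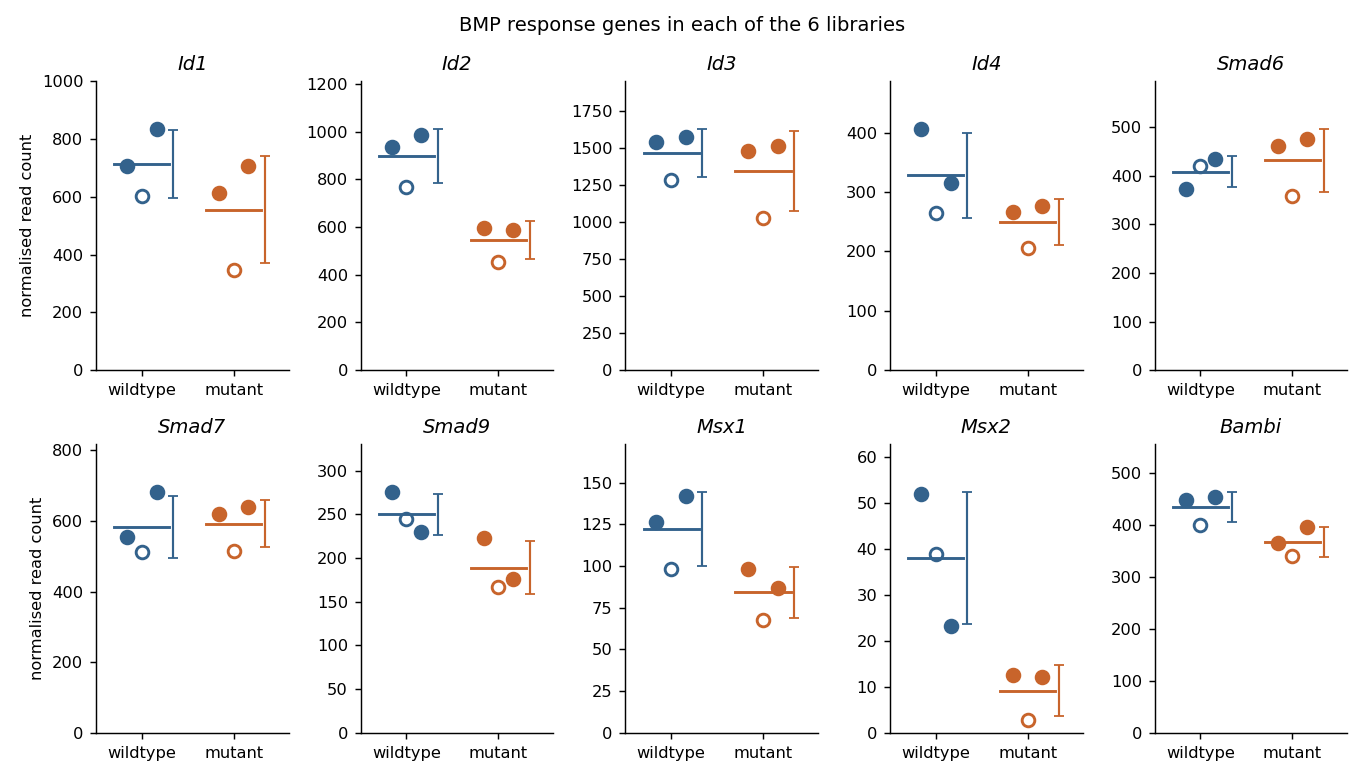
Normalised read counts (linear vertical axes from 0) of the 10 BMP response genes in the 3 wildtype (blue) and 3 mutant (orange) libraries. Each circle is a library, open circles are the libraries that the 4-library table leaves out, lines are means and bars are SD. The mutant circles lie below all wildtype circles for Id2, Smad9, Msx1, Msx2 and Bambi.

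Id2 (chromosome 12, 25093799 to 25097140, minus strand, GRCm38) showed the clearest difference among the 4 Id genes. It had 595, 455 and 587 normalised reads in mutant libraries 1 to 3 and 936, 770 and 985 in wildtype libraries 1 to 3. Every mutant library was thus lower than every wildtype library, and the mean of 546 ± 78.6 in the mutant (SD, n = 3) was 60.8% of the wildtype mean of 897 ± 113 (SD, n = 3). In the authors' deposited tables its log2 fold change was -0.59 (SE 0.115, adjusted p 3.40e-05) with 6 libraries and -0.58 (adjusted p 3.60e-06) with 4 (DESeq2 Wald test). The limma log2 difference was -0.72 (95% interval -0.995 to -0.44, adjusted p 0.0111, where alternatives, DESeq2 tests among them, ranged from 3.60e-06 to 0.0791). The adjusted p of limma rose to 0.0791 without wildtype library 1 and to 0.0591 without wildtype library 3, with log2 differences of -0.68 and -0.65.

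Id2 is shown with the sequence before its start site because it was called with 6 and with 4 libraries. The bases come from RefSeq on GRCm38.p6, 5′ to 3′ on the strand of the gene, from chr12:25096254-25096342, and capitals mark GGCGCC, a GC-rich element that Smad1 and Smad5 can bind.
Id2: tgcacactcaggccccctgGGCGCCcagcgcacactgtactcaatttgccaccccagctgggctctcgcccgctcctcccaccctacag
This stretch of 89 bases lies in an intron of the longer Id2 transcript of GENCODE, and the bases between it and the RefSeq start, which GENCODE annotates as UTR, are not printed.

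RefSeq windows of 250 bases before the start were at hand for 7 members (Id2, Id3, Id4, Smad6, Smad9, Msx1 and Msx2). GGCGCC, which reads the same on both strands, was present in 3 of them, those of Id2 (231 bases before the start), Id4 (148 bases) and Smad9 (51 bases). The 36 bases around each match are set side by side because these 3 genes share the element but not the call, with capitals again on GGCGCC. They lie at chr12:25096303-25096338 on the minus strand for Id2, and on the plus strand at chr13:48260953-48260988 for Id4 and chr3:54755516-54755551 for Smad9.
Id2: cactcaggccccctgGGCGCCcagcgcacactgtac
Id4: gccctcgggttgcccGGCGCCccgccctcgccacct
Smad9: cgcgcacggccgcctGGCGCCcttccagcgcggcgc
Of all 32851 windows of the same length 9.59% hold GGCGCC. The member windows were 61.6% to 75.6% G and C, against a median of 52.4% over all windows, and this element is made of G and C alone. GENCODE annotates as UTR all 250 bases of the Id3 and Msx2 windows and 161 of those of Id2. A match is a description of the letters and no evidence of binding.

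Id1 (chromosome 2, 152736251 to 152737410, plus strand) had 613, 348 and 707 normalised reads in mutant libraries 1 to 3 and 706, 602 and 834 in wildtype libraries 1 to 3. The groups overlapped, since mutant library 3 lay above wildtype libraries 1 and 2, and mutant library 2 stood far below the rest. The authors' deposited table gave a log2 fold change of -0.25 (95% interval -0.52 to 0.022, adjusted p 0.555, DESeq2 Wald test). Without mutant library 2 the limma log2 difference went from -0.41 to -0.10.

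Id4 (chromosome 13, 48261228 to 48266026, plus strand) had 266, 206 and 276 normalised reads in the mutant and 406, 265 and 315 in the wildtype libraries 1 to 3. The groups overlapped only through wildtype library 2, which lay below 2 of the mutant libraries. The authors' deposited tables gave log2 fold changes of -0.30 with 6 and -0.29 with 4 libraries, neither of which passed (adjusted p 0.341 and 0.394, DESeq2 Wald test). The antisense gene A330033J07Rik and the lincRNA Gm49291 overlap Id4 on the opposite strand, and their reads cannot be told apart from those of Id4 without a stated strand setting.

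Id3 (chromosome 4, 136143497 to 136145755, plus strand) had 1482, 1032 and 1518 normalised reads in the mutant and 1543, 1283 and 1578 in the wildtype libraries 1 to 3. The groups overlapped, and in the authors' deposited table the 95% interval of the log2 fold change ran from -0.34 to 0.13 (adjusted p 0.869, DESeq2 Wald test). The limma difference of Id3 changed sign, from -0.14 to 0.037, without mutant library 2.

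The Smad genes of the set include both an effector and the inhibitors. Smad9 (chromosome 3, 54755582 to 54801257, plus strand), the receptor-regulated Smad of the BMP branch that is itself induced by the pathway, had 223, 167 and 176 normalised reads in mutant libraries 1 to 3. In wildtype libraries 1 to 3 it had 276, 245 and 230, so the groups did not overlap, although mutant library 1 came close to wildtype library 3. The mutant mean of 189 ± 30.05 (SD, n = 3) was 75.5% of the wildtype mean of 250.1 ± 23.4 (SD, n = 3). Smad9 did not pass the test in the authors' deposited tables, where its log2 fold change was -0.31 (SE 0.128, adjusted p 0.284) with 6 libraries and -0.21 (adjusted p 0.796) with 4 (DESeq2 Wald test).

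Smad6 (chromosome 9, 63953076 to 64022059, minus strand), which preferentially inhibits BMP receptors, had 460, 358 and 476 normalised reads in the mutant and 372, 419 and 434 in the wildtype libraries 1 to 3. Mutant library 2 held the lowest and mutant libraries 1 and 3 the highest values, so that the wildtype libraries fell in between. Its log2 fold change was 0.066 (95% interval -0.16 to 0.30) with 6 and 0.17 (-0.062 to 0.41) with 4 libraries, neither of which passed in the authors' deposited tables.

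Smad7 (chromosome 18, 75367529 to 75395935, plus strand), which inhibits both BMP and TGF-beta receptors, had 619, 516 and 640 normalised reads in the mutant and 555, 512 and 682 in the wildtype libraries 1 to 3. The ranges were nearly the same. The authors' deposited table gave 0.018 on the log2 scale, moderated as described below, with a 95% interval of -0.21 to 0.24. This interval reaches neither the log2 fall of 0.59 measured for Id2 nor a rise of that size.

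Bambi (chromosome 18, 3507923 to 3516404, plus strand), a transmembrane protein that resembles a receptor but lacks the kinase, had 365, 340 and 396 normalised reads in the mutant. Its wildtype libraries 1 to 3 had 447, 399.8 and 453, so the groups were separated by a narrow gap between mutant library 3 and wildtype library 2. The mutant mean of 367 ± 28.3 (SD, n = 3) was 84.7% of the wildtype mean of 433 ± 29.3 (SD, n = 3). Bambi did not pass the test, its log2 fold change being -0.20 (adjusted p 0.525, DESeq2 Wald test, the authors' deposited table).

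Msx2 (chromosome 13, 53466884 to 53473074, minus strand) was the weakest of the 10 genes and differed most in the recovered reads. It had 18, 3 and 10 reads in mutant libraries 1 to 3 and 65, 33 and 18 in wildtype libraries 1 to 3. As normalised reads these were 12.52, 2.82 and 12.2 in the mutant and 51.9, 39.0 and 23.2 in the wildtype. The groups did not overlap, but the wildtype libraries differed among themselves by more than those of any other member relative to their mean of 38.1 ± 14.4 (SD, n = 3). The mutant mean of 9.19 ± 5.52 (SD, n = 3) was 24.1% of the wildtype mean. In the authors' deposited table the log2 fold change was only -0.55 (SE 0.136, adjusted p 0.00320, DESeq2 Wald test), which is 0.683 of the wildtype level. DESeq2 had shrunk these fold changes toward 0, most for genes with few reads. The limma difference of the recovered values was -2.08 (95% interval -3.13 to -1.03, adjusted p 0.0445, where alternatives, DESeq2 tests among them, ranged from 0.00312 to 0.258).

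The call of Msx2 depended on the libraries used. With 4 libraries the authors' deposited table gave -0.27 on the log2 scale and an adjusted p of 0.245 (DESeq2 Wald test). The limma adjusted p exceeded 0.05 without mutant library 1 (0.0521), wildtype library 1 (0.258), wildtype library 2 (0.0708) or wildtype library 3 (0.0606). The log2 difference stayed between -2.39 and -1.47 over all 6 fits that leave out 1 library. The number of members called lower was 1, 2 and 2 without mutant library 1, 2 or 3 and 0, 1 and 0 without wildtype library 1, 2 or 3, where 0.525%, 0.867%, 0.692%, 0.358%, 1.01% and 0.620% of genes were called lower. Between the libraries that the 4-library table leaves out, 3 reads stood against 33, a ratio of 0.0723 with a 95% interval of 0.0142 to 0.231 (exact binomial, counting error only). Of the Msx2 sequence before the RefSeq start, 30 bases are shown around its only match to GTCT, the short element that Smad proteins bind (capitals, minus strand, chr13:53472827-53472856, GRCm38.p6, RefSeq). They are shown because the window of Msx2, unlike that of Id2, holds no GGCGCC.
Msx2: ttggttgagccgaGTCTcccacttcccctc
GENCODE annotates this stretch as part of the Msx2 UTR. GTCT on either strand is common, in 82.9% of all windows, and was present in 5 of the 7 member windows, all but those of Id4 and Msx1. TGACAG, a core that Meis proteins bind, was found on either strand only in the window of Smad6 (183 bases before the start) and in 15.9% of all windows. The E-box CANNTG was in the windows of Id2, Smad9, Msx1 and Msx2 and in 66.2% of all.

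Msx1 (chromosome 5, 37820485 to 37824583, minus strand) had 98.1, 67.7 and 86.8 normalised reads in mutant libraries 1 to 3 and 126, 98.2 and 142 in wildtype libraries 1 to 3. All mutant values lay below all wildtype values, but mutant library 1 and wildtype library 2 were almost equal. The mutant mean of 84.2 ± 15.3 (SD, n = 3) was 68.9% of the wildtype mean of 122 ± 22.2 (SD, n = 3). Msx1 did not pass the test in the authors' deposited tables, with log2 fold changes of -0.34 (SE 0.144, adjusted p 0.298) for 6 and -0.27 (adjusted p 0.591) for 4 libraries (DESeq2 Wald test).

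**Figure D2:**
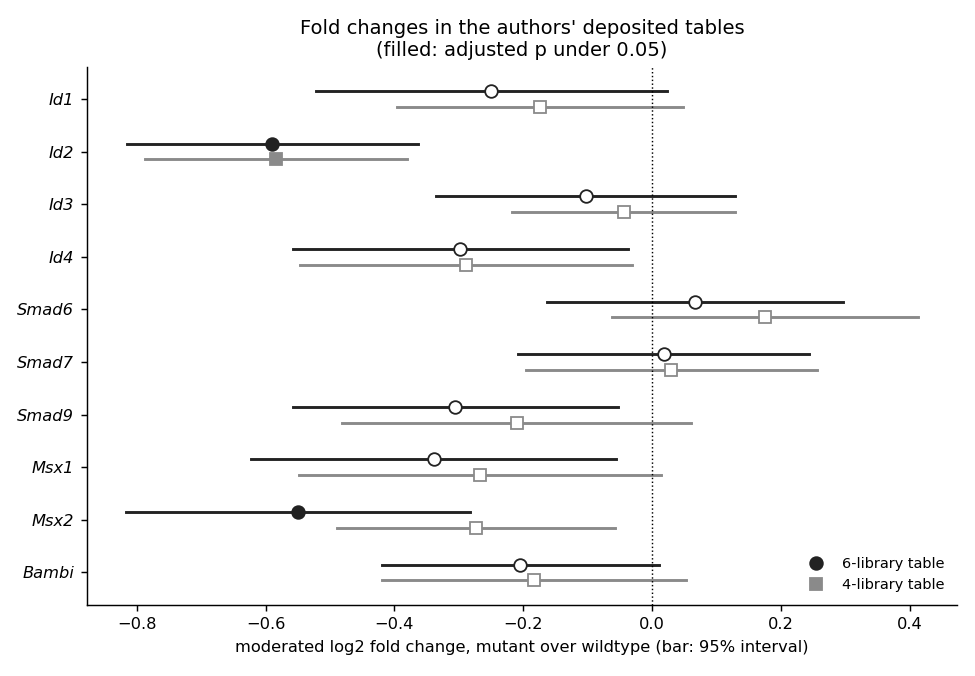
Moderated log2 fold changes, mutant over wildtype, of the 10 BMP response genes in the authors' deposited tables of 6 libraries (circles) and 4 libraries (squares), with 95% intervals as bars and filled symbols where the adjusted p was under 0.05. Id2 is filled in both tables, Msx2 only with 6 libraries, and Smad6 and Smad7 are the only genes above 0.

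Compared per kilobase of annotated exon, the wildtype level was highest for Id3, at 820 normalised reads per kilobase, followed by Id1 at 615 and Id2 at 368. The ranges of Id3 (717 to 881) and Id1 (519 to 719) over the 3 wildtype libraries overlapped, and Id2 (316 to 404) lay apart from both. The length was that of all annotated exons of a gene joined, 1160 bases for Id1 and 2438 for Id2. Exons not used in this tissue lower the value, and which transcripts were used was not known, so the order between genes depends on that length. Smad7 (113 to 151) and Smad6 (116 to 135) overlapped, as did Bambi (78.8 to 89.3) and Id4 (68.8 to 105). Smad9 (42.8 to 51.4) overlapped with Msx1 (31.7 to 45.9), and Msx2 was the lowest at 7.09 to 15.8. In the mutant Id2 stood at 224 and Msx2 at 2.80 normalised reads per kilobase, and their places in the order did not change.

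The libraries that the 4-library table leaves out were low for this set in both genotypes. Mutant library 2 held the lowest mutant value of all 10 members, as it did for 39.7% of the recovered genes, and wildtype library 2 the lowest wildtype value of 7 members, as for 35.1% of recovered genes. Both held for 7 members and 24.0% of recovered genes. Id1 in mutant library 2 was at 0.528 of the mean of the other mutants, Id3 at 0.688 and Smad7 at 0.819, while Meis2 was at 1.12. In wildtype library 2 the corresponding values were 0.782 for Id1, 0.822 for Id3 and 0.828 for Smad7. The nuclear ribosomal RNA gene Rn45s took 13.98% of the summed base means of the authors' deposited table of 6 libraries and 17.4% of that of 4. These libraries also had the highest summed level of epithelial markers (1726 and 1786 normalised reads against 1168 to 1387 in the other 4) and of endothelial markers (5498 and 5646 against 4532 to 4914). The part of either in the low values was not tested.

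Within each set of libraries the mutant to wildtype ratio of Id2 was nearly the same, 0.615 in the 4 libraries of the 4-library table and 0.591 in the pair it leaves out. The same held for Msx1 (0.689 and 0.690), Id4 (0.753 and 0.778) and Bambi (0.845 and 0.850). Id1 went from 0.857 to 0.578, Smad6 from 1.16 to 0.854 and Msx2 from 0.329 to 0.0723, with 1 library per genotype in the second value and so no test of the difference. A limma fit with a term for the libraries left out, chosen after the values had been seen, called 6 members lower and 0 higher, where 4.29% of the 12573 genes were called lower. These were Id2, Msx2, Msx1, Id1, Id4 and Smad9, with adjusted p of 7.47e-06, 0.00386, 0.0287, 0.0288, 0.0353 and 0.0479 (limma). Over all alternatives the adjusted p ranged from 0.0287 to 0.601 for Msx1, 0.0288 to 0.918 for Id1, 0.0353 to 0.809 for Id4 and 0.0479 to 0.796 for Smad9. The same fit left Bambi at 0.0882, Id3 at 0.199, Smad6 at 0.733 and Smad7 at 0.894.

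**Figure D3:**
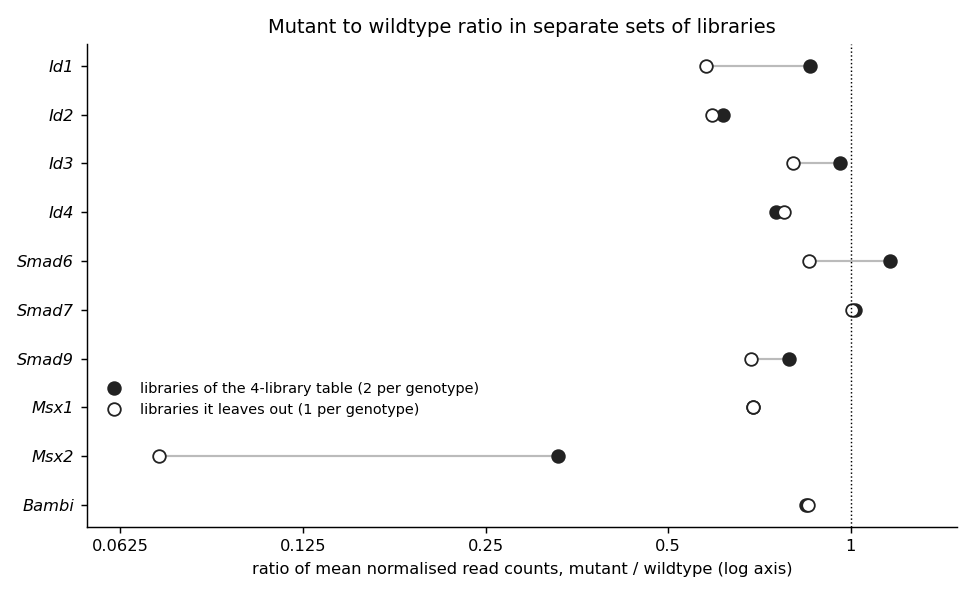
Ratio of mean normalised read counts, mutant over wildtype (log axis), for the 10 BMP response genes in the 4 libraries of the 4-library table (filled) and in the pair it leaves out (open). The symbols of Id2, Id4, Smad7, Msx1 and Bambi nearly coincide, and those of Msx2 lie farthest apart, at 0.329 and 0.0723.

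Markers of other cell types were read beside these results. None of the 10 endothelial markers, a cell type in which Id1, Id3 and Smad6 are well expressed, was called in the authors' deposited table. Over 9 of them the summed normalised reads were 4778 to 5498 in the mutant and 4532 to 5646 in the wildtype libraries, so the groups overlapped. None of the 10 epithelial markers was called, and none of the listed epithelial markers was at 0. Muscle markers were higher (7 of 9 called, summed reads of 8 markers 883 to 1608 against 409 to 531), as were macrophage markers (3 of 8, 1021 to 1168 against 668 to 801). Neuron markers were lower, with 3 of 6 measured called and summed reads of 314 to 364 against 492 to 910. Of the markers of glia and of erythroid cells 0 were called, and of 6 markers of pericytes and smooth muscle 1 was higher. The part of these cell types in the levels of Id2 and Msx2 was not tested. Of 8 markers of palatal mesenchyme all were measured, with a summed base mean of 83983, and 2, Prrx1 and Twist1, were lower in the authors' deposited table.

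Other genes of the pathway were read by role, in 9 lists that hold 83 measured genes and were drawn up with earlier results of these data known. The authors' deposited table called 2.90% of all genes in either direction, and 21 of these 83, with 14 lower and 7 higher. With 4 libraries the authors' deposited table called 15 of them, 10 lower and 5 higher, and the 6 that lost their calls were Bmp3, Gdf6, Bmper, Chrdl1, Pax3 and Runx2. Among the ligands 3 of 10 fell and 1 rose. Bmp2, a ligand of the palate and of bone, fell by 0.82 (log2, adjusted p 1.82e-06, DESeq2 Wald test, the authors' deposited table), with 46.1 to 66.8 normalised reads in the mutant and 131 to 147 in the wildtype libraries. In the authors' deposited table Gdf10 and Bmp3 fell by 0.61 and 0.55 and Gdf6, a growth and differentiation factor, rose by 0.53 on the log2 scale. These deposited values are shrunk toward 0, and the limma log2 differences of Gdf10, Bmp3 and Gdf6 were -0.77, -0.71 and 1.09. With 4 libraries Gdf10 was still called, while the adjusted p of Bmp3 was 0.175 and that of Gdf6 0.324 (DESeq2 Wald test, the authors' deposited table). Bmp4, the main ligand upstream of Msx1 and named here after its values were seen, missed the threshold of the authors' deposited table (log2 fold change 0.21, adjusted p 0.545, DESeq2 Wald test). It had 396 to 444 normalised reads in the mutant and 303 to 393 in the wildtype libraries, a narrow gap. Limma did not call it either (adjusted p 0.369).

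The lists of receptors, signal-carrying Smads and Smad regulators held no call. At the 2.90% of all genes called in either direction, lists this short would be expected to hold few calls or none. The authors' deposited table called 0 of 10 receptors and co-receptors, with log2 fold changes from -0.085 for Rgma to 0.25 for Acvr2b, and 0 of 5 signal-carrying Smads, from -0.13 for Smad1 to 0.15 for Smad3 (DESeq2 Wald test). These 5 Smads include Smad2 and Smad3, which are not among the BMP Smads named above. They leave out Smad9, which is counted among the members (log2 fold change -0.31, not called). Of 11 regulators of Smad proteins 0 were called, from -0.11 for Tob1 to 0.19 for Zfp423. The secreted antagonists went both ways, and in the authors' deposited table Bmper and Chrdl1 fell by 0.54 and 0.46 and Nbl1 rose by 0.46 on the log2 scale, with 9 of 12 not called. Nbl1 was called with 4 libraries too (adjusted p 0.0167), but Bmper (0.126) and Chrdl1 (0.139) were not (DESeq2 Wald test, the authors' deposited table). By limma on the recovered reads Chrdl1 missed the threshold as well (adjusted p 0.0713).

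The partners of the Id proteins that were called were lower, and the homeobox genes listed with Msx were called in both directions. Of 9 measured partners of Id proteins, or other helix-loop-helix genes, 2 fell in the authors' deposited table, Twist1 by 0.45 and Hand2 by 0.58 on the log2 scale. Hand2, a basic helix-loop-helix gene of the branchial arches, had 3, 1 and 1 reads in mutant libraries 1 to 3 against 25, 14 and 22 in wildtype libraries 1 to 3. Its limma log2 difference was -3.22, since the deposited fold changes are shrunk toward 0, most for genes with few reads. Of 9 homeobox genes of the facial mesenchyme listed with Msx, the authors' deposited table called 2 lower and 4 higher, among them Alx4 and Shox2 lower, by 0.96 and 0.90, and Pax3, Alx1 and Pax9 higher, by 0.67, 0.66 and 0.46 on the log2 scale. Of these 5 named genes Pax3 alone lost its call with 4 libraries (adjusted p 0.0927, DESeq2 Wald test, the authors' deposited table). Of 11 other genes known to be induced by BMP the authors' deposited table called 4 lower and 0 higher. Among these were Runx2, which fell by 0.64 on the log2 scale, Tbx3, which fell by 0.54, and Tbx2, which fell by 0.40. Runx2, required for bone formation, lost its call in the authors' deposited table of 4 libraries (log2 fold change -0.33, adjusted p 0.321, DESeq2 Wald test), and Tbx2 missed the threshold by limma (adjusted p 0.09997). In this list of 11, 6 genes had a log2 fold change below 0. Gata2 and Gata3 lay higher, by 0.40 and 0.26, without a call (adjusted p 0.116 and 0.526, DESeq2 Wald test, the authors' deposited table). The limma fit with a term for the left-out libraries called 3 of the 9 with recovered reads lower and 1, Gata2, higher.

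Of 8 genes that respond to TGF-beta, which shares Smad7 with the BMP branch, the authors' deposited table called Tgfbi higher by 0.44 and Thbs1 lower, which fell by 0.42 on the log2 scale. The 9 lists had median log2 fold changes between -0.13, for the Id protein partners, and 0.059, for the receptors, by the authors' deposited table of 6 libraries, and the 10 BMP response genes had -0.27. With 4 libraries the list medians ran from -0.093, for the ligands, to 0.069, for the secreted antagonists, and the members had -0.20. The 6-library value includes mutant library 2, the lowest mutant library for all 10 members.

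**Figure D4:**
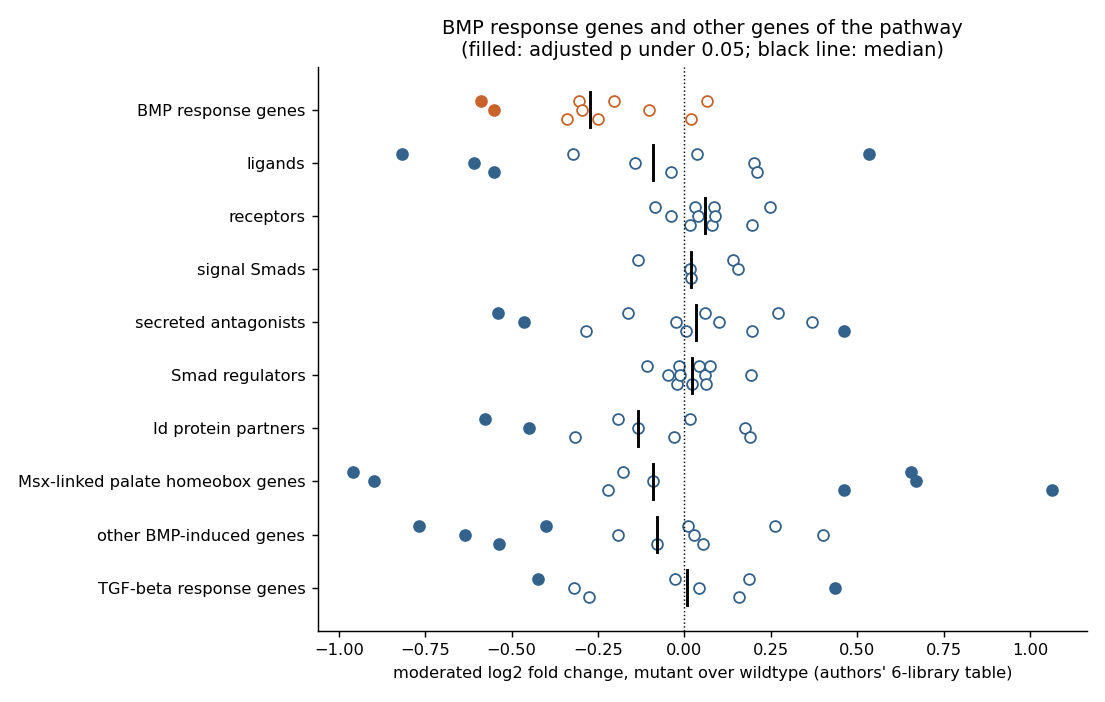
Moderated log2 fold changes, mutant over wildtype, in the authors' deposited 6-library table for the 10 BMP response genes (orange) and 9 lists of other pathway genes (blue). Filled circles mark an adjusted p under 0.05, and black lines are medians. Receptors, signal Smads and Smad regulators hold no filled circle.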

How the data were processed

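Gene tables were the only data. The submitters' processing notes name HISAT2, featureCounts and DESeq2 and the builds GRCm38 and mm10. Versions and the strand setting were not given in the sources used here. RNA was reverse transcribed and amplified before library preparation, per the labels' protocols. The authors deposited, per gene, a base mean (a signal, the mean over libraries of size-factor scaled counts), a moderated log2 fold change with its SE, a Wald score, and a p-value with its adjusted p-value. The remaining deposited table, a short list, was not used here.

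The design text describes each table as 1 wildtype against 1 mutant library, but genes with a single read take 6 levels of base mean in the first table and 4 of these libraries appear in the second. Each level is the weight of a library. Whole reads that gave both base means within their printed digits (15 in the 4-library and 10 in the 6-library table) were searched for genes below a limit on both base means, and the highest base mean recovered was 1647. On simulated reads 99.8% of 12399 genes whose base mean reached 10 had 1 solution and 0 of these were wrong. Fold changes were not used in the search for whole reads, but the sign of those of single-read genes placed each library in a genotype. Of 4397 genes whose recovered log2 difference exceeded 0.2, 4395 had the sign of the deposited fold change. This match in sign rests in part on that placement.

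Genes were called at an adjusted p under 0.05 of the authors' DESeq2 test. Recovered values were tested with limma 3.58.1 in R 4.3.3, with an intensity trend and a pseudocount of 1, on 12573 genes whose base mean reached 10, an alternative added after the data were seen. On simulated libraries, 3 against 3 with 12573 genes, it called 96.0% of 100 genes changed 2-fold, 67.0% of 100 changed 1.5-fold and 0.0889% of unchanged genes. Every simulated gene had a dispersion of 0.01, and no libraries were made to shift together. These rates therefore do not carry over to genes that vary more between libraries, Id1 and Msx2 among them. Annotation was GENCODE M21, and sequences were from RefSeq. The members and lists were chosen with earlier results of these data known. Named genes are all members, and from each list the genes called in either table or, where none was called, those with the highest and lowest fold change, and some called genes of the lists are not reported here. The labels call the samples biological replicates. Other alternatives were the 4-library table, other p adjustments, centring, pseudocounts, each library left out, and a term for the libraries left out of the 4-library table.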

Additional observations from a re-analysis of the deposited data

How the results depend on the processing

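Id2 and Msx2 remained below 0 in every alternative run, as did Id1, Id4, Smad9, Msx1 and Bambi. Other p adjustments left the fold changes as they were, and the term for the left-out libraries left the limma differences as they were. Those alternatives could not change a sign. The 2 called members became 1 with the 4-library table and 1 with p adjusted over genes whose base mean reached 100, which leaves out Msx2 by construction. They became 6 by limma with a term for the libraries left out of the 4-library table, a fit that called 540 genes lower against 122 without the term. Over the fits that leave out 1 library the count was 0 to 2 for the members and 7 to 14 for the wider lists, against 21 called in the authors' 6-library table, 15 in the 4-library table and 15 by limma with all libraries, which tested 65 of the 83 genes. The lists had 7 without wildtype library 1. The count was 0 for the members without wildtype library 1 or wildtype library 3. Over these fits Id3 ranged from -0.24 to 0.037, Smad6 from -0.0060 to 0.20 and Smad7 from -0.063 to 0.14 on the log2 scale, so each changed sign. For Smad7 this happened without mutant library 1 (-0.011), mutant library 3 (-0.035), wildtype library 1 (-0.0050) or wildtype library 2 (-0.063), for Smad6 without mutant library 3 and for Id3 without mutant library 2. The cause of these changes was not tested. Meis2 went from -0.28 to -0.33 with 4 libraries (adjusted p 0.0213, DESeq2 Wald test). No paired analysis was possible because the recovered libraries carry no replicate numbers. Depth limits Msx2 most, at 3 to 65 reads per library, and intervals on reads cover counting error only.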
